A study of Homo sapiens with 6 samples.

Results

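The genes described here are the 8 numbered members of the ALKBH family (ALKBH1 to ALKBH8), their relative FTO, and MGMT. They are the rows of the deposited table with these symbols, 10 of the 35793 listed genes. RNA was measured in cardiomyocytes made from WTC11, an established human line of induced pluripotent stem cells. The cells were unedited (wild type, 3 libraries) or came from a WTC11 derivative made homozygous for a CRISPR/Cas9 knockout of the kinase gene STK25 (3 libraries). Both groups received no treatment and were collected on day 15 of differentiation. The knockout is represented by 1 derived line, so the edit and any other difference between the lines cannot be told apart. The labels call the libraries biological replicates and do not say whether they were separate differentiations. The family was chosen by its normalized counts in wild type and knockout, which were already known, so their levels and fold changes are given as a description, with standard errors (SE) and no p-value.

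ALKBH proteins and FTO belong to the dioxygenases that use iron and 2-oxoglutarate. Several of them oxidise a methyl group, which then leaves the base that carried it, while ALKBH8 hydroxylates a modified wobble uridine of transfer RNA without removing a methyl group. ALKBH2 and ALKBH3 reverse alkylation damage on DNA bases directly, and ALKBH3 prefers single-stranded DNA and also acts on RNA. FTO and ALKBH5 remove the methyl group of m6A, the most common internal mark of messenger RNA, while MGMT repairs methylated guanine in DNA by taking the alkyl group onto itself in a single use. In heart muscle FTO and ALKBH5 are the members studied most, as regulators of contractile function and of the response to injury.

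The promoters shown are those of ALKBH3, which was nearly absent in the knockout libraries, of its neighbour ACCS, which was also low there, and of ALKBH2 and MGMT, the other direct DNA repair members. Each is the RefSeq stretch on GRCh38.p14 from 250 bases before to 50 bases after the gene start, written 5′ to 3′ on the gene's strand, with every CG pair in capitals. ALKBH3 lies on the plus strand at chr11:43880581-43880880, ACCS on the plus strand at chr11:44066020-44066319, ALKBH2 on the minus strand at chr12:109093423-109093722 and MGMT on the plus strand at chr10:129466991-129467290.
ALKBH3: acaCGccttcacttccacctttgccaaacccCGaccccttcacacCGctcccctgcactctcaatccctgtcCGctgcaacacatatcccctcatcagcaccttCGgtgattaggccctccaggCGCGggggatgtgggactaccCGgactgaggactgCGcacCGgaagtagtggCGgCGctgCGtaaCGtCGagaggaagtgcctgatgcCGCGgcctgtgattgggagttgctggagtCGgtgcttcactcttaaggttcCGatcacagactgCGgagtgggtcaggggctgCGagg
ACCS: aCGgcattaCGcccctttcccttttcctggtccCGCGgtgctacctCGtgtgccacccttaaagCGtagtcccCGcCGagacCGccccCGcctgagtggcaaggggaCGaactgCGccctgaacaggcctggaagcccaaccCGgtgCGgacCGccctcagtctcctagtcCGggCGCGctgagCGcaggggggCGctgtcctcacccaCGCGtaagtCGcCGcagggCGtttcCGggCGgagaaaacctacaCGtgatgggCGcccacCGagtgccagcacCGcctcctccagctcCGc
ALKBH2: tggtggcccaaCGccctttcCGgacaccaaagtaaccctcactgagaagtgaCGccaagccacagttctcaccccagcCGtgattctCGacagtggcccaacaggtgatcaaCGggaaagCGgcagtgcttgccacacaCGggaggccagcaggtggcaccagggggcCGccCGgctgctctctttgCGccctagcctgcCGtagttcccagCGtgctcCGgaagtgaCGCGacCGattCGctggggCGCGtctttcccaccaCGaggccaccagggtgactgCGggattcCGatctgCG
MGMT: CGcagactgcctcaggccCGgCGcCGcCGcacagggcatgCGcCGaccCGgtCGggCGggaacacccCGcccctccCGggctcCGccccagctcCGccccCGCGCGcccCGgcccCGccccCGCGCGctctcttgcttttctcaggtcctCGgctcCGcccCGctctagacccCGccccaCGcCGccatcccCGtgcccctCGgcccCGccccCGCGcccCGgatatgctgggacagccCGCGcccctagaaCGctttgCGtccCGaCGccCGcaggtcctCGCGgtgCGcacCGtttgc
The ALKBH3 window holds 21 CG pairs, ACCS 32, ALKBH2 24 and MGMT 45, against a median of 14 over 35116 RefSeq promoters of the same length. A promoter was found for 10 of the 10 genes, and ALKBH8 had the fewest CG pairs with 11. The motif CCGGAAGT, searched on both strands and chosen after the sequences were seen, stands in the ALKBH2 and ALKBH3 windows, so in 2 of the 10 genes and in 4.14% of all promoters. A CCAAT motif on either strand stands in 4 of the 10 genes, ALKBH3 among them, and in 34.6% of all promoters. These matches describe the letters of each window and say nothing of which factor binds.

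The libraries held from 22443904 to 53224112 reads assigned to genes. STK25, the edited gene, had 6774 to 8874 normalized counts in the wild type and 3434 to 3906 in the knockout. Within each genotype 1 library stood apart on the second principal component, which carried 24.1% of the variance: wild-type replicate 2 (score -62.7, against 16.1 and 24.7) and knockout replicate 1 (-78.4, against 60.0 and 40.4). The labelled cell type was checked by 10 cardiomyocyte markers, whose sum was 868501 to 921871 normalized counts across wild-type libraries and 1045590 to 1083460 across knockout libraries, and 0 of the 10 were at 0 in every library of a genotype. Of the 10, 0 were called higher in the knockout and 1 was called lower, the cardiac transcription factor NKX2-5 (log2 fold change -1.71, SE 0.18, limma adjusted p = 0.00135), so the higher sum is not a call on its members. Of 10 marker lists, for cardiomyocytes and 9 other cell types or states, the summed level was above the wild type in every knockout library for 5 (cardiomyocyte, smooth muscle, epicardial, epithelial and pluripotent), below it for 2 (endoderm and liver, cycling) and overlapping for 3. The smooth muscle sum went from 82158 to 94154 up to 490518 to 539769. The cycling sum went from 27346 to 31209 down to 16208 to 18025. Called higher were 4 of 5 smooth muscle, 1 of 5 epicardial, 1 of 5 pluripotent and 2 of 5 epithelial markers, with 1 epithelial marker lower. Called lower were 1 of 4 tested endoderm and liver markers and 3 of 6 cycling markers. Of the overlapping lists, fibroblast and stromal had 3 called higher and 1 lower, neural 3 higher and endothelial 0. Defining markers at 0 in every library of a genotype were FOXA2 (endoderm) and SOX17 in the wild type, and FOXA2, VWF (endothelium) and SOX1 (neural) in the knockout. The part of these differences in the results below was not tested, and in bulk RNA fewer cells of a type and less RNA per cell cannot be told apart.

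**Figure D1:**
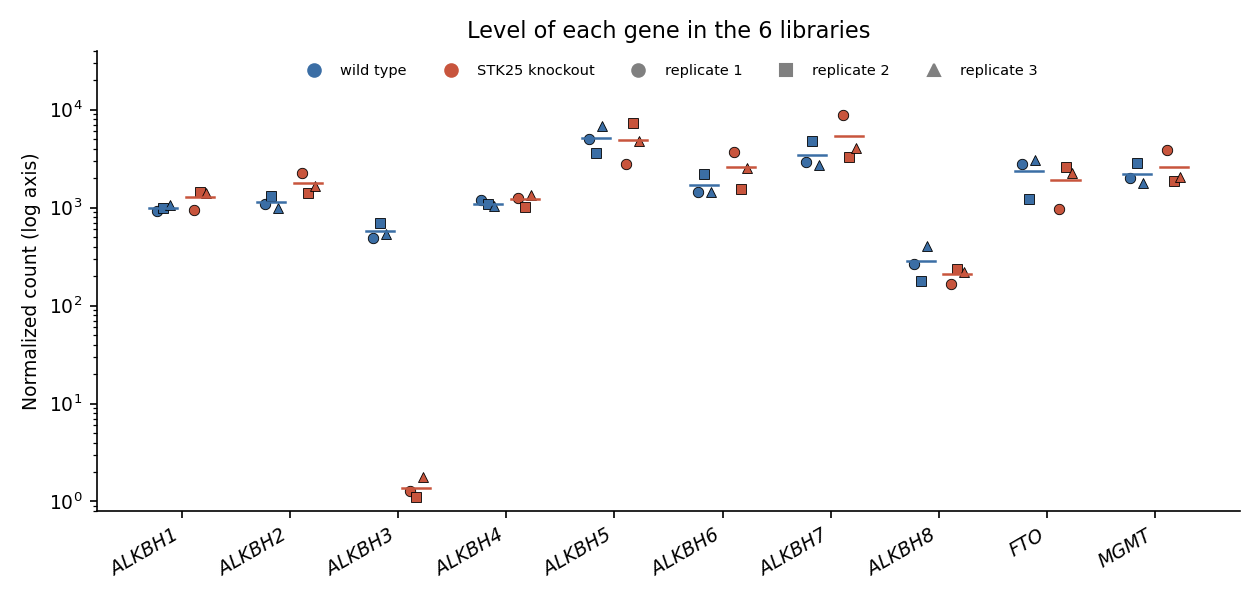
Normalized count of each of the 10 genes on a log axis in wild-type (blue) and STK25 knockout (red) libraries; the symbol shape gives the replicate and the short line the mean of 3. ALKBH3 lies between 1.11 and 1.78 in the knockout libraries and between 491 and 689 in the wild type, while the other 9 genes keep levels above 150 in every library.

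Among the DNA repair members, ALKBH3 (ENSG00000166199.12, plus strand of chromosome 11, 43880811 to 43920266 in GENCODE 29 on GRCh38) was the gene that differed most. Its normalized counts were 491, 689 and 533 in wild-type replicates 1 to 3 and 1.27, 1.11 and 1.78 in knockout replicates 1 to 3. The wild-type libraries were all high and the knockout libraries all near the limit of detection, with no value in between. These values rest on 325, 905 and 835 reads in the wild type and on 1, 1 and 2 reads in the knockout. The means were 571 ± 105 and 1.39 ± 0.35 (SD, n = 3 each), so the knockout kept 0.243% of the wild-type level. Weighted by depth the wild type was 409-fold higher, with an exact 95% interval of 160 to 1504 that covers counting error only. On the log2(value + 1) scale the difference was -7.90 with an SE of 0.43, which understates so low a level and moved to -8.59 with a pseudocount of 0.1 and -5.66 with 10. Its rank was 9 from the lowest of 15536 tested genes. ALKBH3 was 1 of 18 tested genes (0.116%) with a wild-type mean of at least 100 and at most 3 reads in every knockout library, a class defined after the values were seen, and the reverse class held 10 (0.0644%). Gene totals do not show which transcripts the remaining reads came from.

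ALKBH2 (minus strand of chromosome 12, 109088188 to 109093631), which repairs the same kinds of methylated base in double-stranded DNA, had 1078, 1312 and 1001 normalized counts in the wild type. The knockout libraries had 2236, 1401 and 1661. Every knockout library was above every wild-type library, and the closest pair, wild-type replicate 2 and knockout replicate 2, was 1312 against 1401. The log2 fold change was 0.63 (SE 0.24), and 0.34 with libraries scaled to equal totals. As counts per 1e6 reads (CPM) the genotypes also did not overlap, with 29.5 to 33.6 in the wild type and 36.0 to 44.9 in the knockout.

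MGMT (plus strand of chromosome 10, 129467184 to 129768007), the single-use guanine repair protein, had 1997, 2830 and 1798 normalized counts in the wild type and 3871, 1888 and 2068 in the knockout. The high value in each genotype was that of the library that stood apart, and the other 4 libraries lay between 1798 and 2068. The log2 fold change was 0.19 (SE 0.32), and -0.13 without knockout replicate 1.

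The 3 repair members therefore had 3 patterns, a near absence, a higher level without overlap and overlapping levels. Each of the 10 genes passed the filter on low values, ALKBH3 only through its wild-type libraries (mean 571, against 1.39 in the knockout). Of the 10, 1 (ALKBH3) met the call rule used for the whole table, a limma adjusted p under 0.05. That rule was met by 12.8% of the 15536 tested genes, 5.97% as higher and 6.79% as lower in the knockout. Values of the genotypes did not overlap for 2 of the 10 (ALKBH2 and ALKBH3), against 33.4% of tested genes (16.2% higher and 17.2% lower). Nothing is read from these counts, since the genes were proposed with this contrast known. The median log2 fold change of the 10 was 0.16, against 0.0052 over tested genes. Scaling to equal totals shifted the median of tested genes to -0.27 and that of the 10 to -0.12, and made 27.4% of the calls higher in the knockout in place of 46.8%. Estimates below are relative to the deposited scaling.

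The genes around ALKBH3 were compared to see whether the low level extended along chromosome 11. Within 500 kb on either side 13 other genes are listed in the table and 5 passed the filter. ACCS, an ACC synthase homolog that starts 146 kb beyond the end of ALKBH3 (44065925 to 44084222), fell from 388, 276 and 430 normalized counts in the wild type to 8.90, 70.2 and 90.6 in the knockout. The 2 ranges did not overlap, and the knockout mean was 15.5% of the wild-type mean. The log2 fold change was -3.16 (SE 0.79, limma adjusted p = 0.0389), and leaving out wild-type replicate 1, 2 or 3 gave an adjusted p of 0.132, 0.0743 or 0.125.

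The other tested neighbours had values on both sides of no change. HSD17B12, a steroid and fatty acid elongation enzyme that ends 24.2 kb before ALKBH3, had 2014 to 2327 normalized counts in the wild type and 1448 to 3120 in the knockout (log2 fold change 0.08, SE 0.30, limma adjusted p = 0.898). EXT2, a heparan sulfate polymerase 175 kb beyond ALKBH3, had 929 to 1912 and 980 to 1671 (log2 fold change -0.17, SE 0.33, limma adjusted p = 0.796). The log2 fold changes of TTC17 and C11orf96 were 0.39 (SE 0.36, limma adjusted p = 0.548) and -0.97 (SE 0.80, limma adjusted p = 0.495). So TTC17 and HSD17B12 before ALKBH3, C11orf96 between it and ACCS, and EXT2 beyond ACCS had overlapping ranges between genotypes. C11orf96 was low, with 18.1, 46.5 and 18.5 normalized counts in the wild type (12, 61 and 29 reads). The knockout libraries had 35.6, 5.57 and 8.89 (28, 5 and 10 reads). Its overlap came from knockout replicate 1, which stood apart, while replicates 2 and 3 lay below every wild-type library. So few reads cannot show whether the low level reached from ALKBH3 to ACCS. Within ALKBH3 itself lies the pseudogene SEC14L1P1 on the same strand. It had 0, 0.762 and 15.9 normalized counts in the wild type (0, 1 and 25 reads) and 0 in the knockout. Whether reads of ALKBH3 and SEC14L1P1 were exchanged was not tested.

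**Figure D2:**
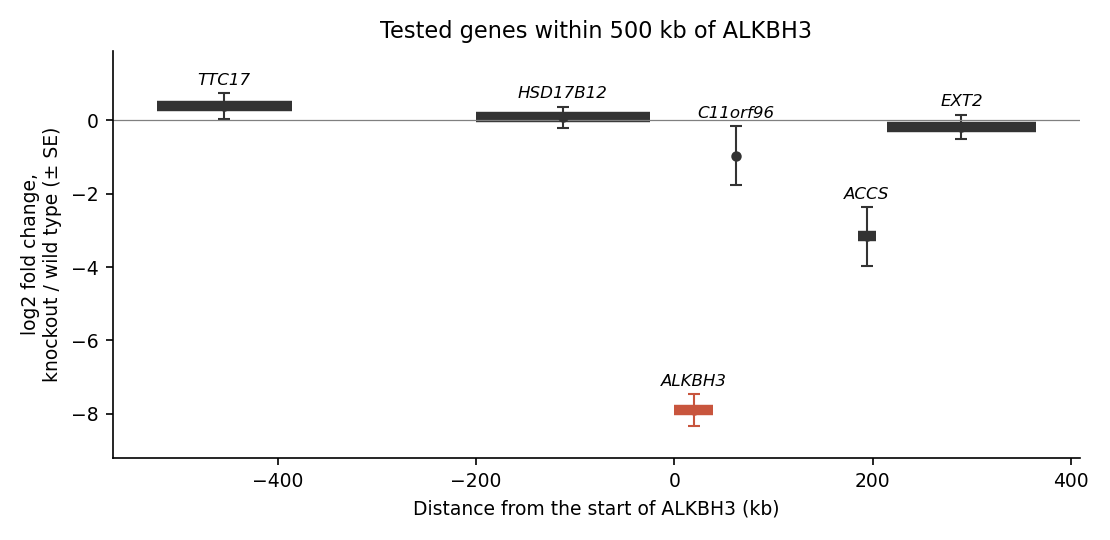
Log2 fold change of knockout over wild type (points, with SE as error bars) for ALKBH3 and the 5 tested genes within 500 kb, drawn at their distance in kb from the start of ALKBH3, with each gene's length as a thick bar. ALKBH3 stands at -7.90 and ACCS at -3.16, while TTC17, HSD17B12, C11orf96 and EXT2 lie between -0.97 and 0.39.

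ALKBH2 has the uracil glycosylase gene UNG and the mitochondrial deubiquitinase gene USP30 as its nearest neighbours. UNG, 3.94 kb away, had 3021 to 3755 normalized counts in the wild type and 2394 to 3185 in the knockout (log2 fold change -0.25, SE 0.20, limma adjusted p = 0.482). USP30, 0.162 kb away, had 833 to 1263 and 1088 to 1753 (log2 fold change 0.50, SE 0.27, limma adjusted p = 0.283). Leaving out wild-type replicate 2 and knockout replicate 1 together gave USP30 a log2 fold change of 0.55 and an adjusted p of 0.0245. Of the 11 tested genes within 500 kb of ALKBH2, 0 had a limma adjusted p under 0.05, with 2 at an unadjusted p under 0.05, 0 with edgeR and 0 with DESeq2. Without those 2 libraries it was 3 of 11: SVOP (0.00113), KCTD10 (0.00902) and USP30. The log2 fold changes of the 11 ran from -0.34 (CORO1C) to 3.44. The highest belonged to SVOP, a synaptic vesicle protein gene with 1.51, 44.2 and 3.83 normalized counts in the wild type and 92.8, 97.0 and 74.7 in the knockout (SE 1.02, limma adjusted p = 0.0661). Without wild-type replicate 2 its adjusted p was 0.00700, and over the 18 alternatives it ran from 0.00113 to 0.193, under 0.05 in 4.

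FTO and ALKBH5 are the m6A demethylases. FTO (plus strand of chromosome 16, 53701692 to 54158512) had 2809, 1235 and 3070 normalized counts in the wild type and 969, 2571 and 2244 in the knockout. ALKBH5 (plus strand of chromosome 17, 18183078 to 18209954) had 4975, 3583 and 6831 in the wild type and 2765, 7315 and 4751 in the knockout. In both genes, as in ALKBH8 and in 30.8% of tested genes, the lowest library of each genotype was the one that stood apart. The genotypes overlapped for both. The log2 fold change of FTO was -0.31 with an SE of 0.47, and 0.13 without knockout replicate 1. That of ALKBH5 was -0.11 with an SE of 0.38, 0.25 without knockout replicate 1 and 0.12 without wild-type replicate 3. The spread within a genotype was large for both: the coefficient of variation of FTO was 41.9% in the wild type and 43.9% in the knockout, and that of ALKBH5 was 31.8% and 46.1%.

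FTO carries in its introns distant enhancers of the Iroquois genes IRX3 and IRX5, and its start lies beside that of the cilium gene RPGRIP1L. IRX3 had 949, 1679 and 988 normalized counts in the wild type and 1392, 659 and 835 in the knockout (log2 fold change -0.35, SE 0.35, limma adjusted p = 0.580). IRX5 had 225, 226 and 225 in the wild type and 140, 92.5 and 91.5 in the knockout, without overlap (log2 fold change -1.08, SE 0.30, limma adjusted p = 0.0565). Its adjusted p was 0.0279 without knockout replicate 1 and 0.0209 with equal totals, and over the 18 alternatives it ran from 0.00754 to 0.185, under 0.05 in 5. RPGRIP1L had 239 to 402 and 186 to 370 (log2 fold change -0.15, SE 0.36, limma adjusted p = 0.846). A processed pseudogene of FTO, FTOP1, had at most 1.27 normalized counts in any library.

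ALKBH1 and ALKBH8 act on transfer RNA. ALKBH1 (minus strand of chromosome 14, 77672404 to 77708020), also found in mitochondria, had 926, 997 and 1061 normalized counts in the wild type, the narrowest spread of the 10 genes with a coefficient of variation of 6.82%. The knockout libraries had 952, 1455 and 1410, so replicates 2 and 3 were above the wild type and replicate 1 within it. The log2 fold change was 0.33 (SE 0.23), and 0.05 with equal totals. ALKBH8 (minus strand of chromosome 11, 107502726 to 107565746), which joins that hydroxylating dioxygenase domain to a transfer RNA methyltransferase domain, was the lowest member of the wild type with 264, 180 and 406. The knockout libraries had 168, 235 and 222, within or just below that range, and the log2 fold change was -0.38 (SE 0.36.) ALKBH8 lies on the other arm of the chromosome that carries ALKBH3.

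The remaining members are ALKBH4, which demethylates actin, ALKBH6, whose substrates are little known, and ALKBH7, a mitochondrial protein tied to necrotic cell death. ALKBH4 (minus strand of chromosome 7, 102456238 to 102464876) had 1186, 1079 and 1040 normalized counts in the wild type and 1269, 1012 and 1361 in the knockout. It varied little within genotypes, with coefficients of variation of 6.86% and 14.9%, and its log2 fold change of 0.13 (SE 0.20) was -0.15 with equal totals. ALKBH6 (minus strand of chromosome 19, 36009120 to 36014239) had 1455, 2208 and 1445 in the wild type and 3704, 1546 and 2569 in the knockout. ALKBH7 (plus strand of chromosome 19, 6372433 to 6375251) had 2932, 4776 and 2758 in the wild type and 8759, 3316 and 4071 in the knockout. Both genes were highest in the library of each genotype that stood apart, and both overlapped between genotypes. Their log2 fold changes were 0.55 (SE 0.34) and 0.54 (SE 0.39), and without knockout replicate 1 they were 0.26 and 0.12. In the annotation the end of ALKBH7 overlaps that of PSPN on the opposite strand, and ALKBH6 overlaps AC002116.1 on its own strand over nearly its whole length, so reads could have been shared.

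The 10 genes differed in how they followed the libraries that stood apart. Wild-type replicate 2 was compared with the mean of wild-type replicates 1 and 3, and knockout replicate 1 with the mean of knockout replicates 2 and 3. ALKBH7 was 1.68 and 2.37 times as high in these libraries, MGMT 1.49 and 1.96 times, ALKBH6 1.52 and 1.80 times and ALKBH2 1.26 and 1.46 times. FTO was 0.420 and 0.402 times as high, ALKBH5 0.607 and 0.458 times and ALKBH8 0.537 and 0.734 times. ALKBH4 was near 1 in both, at 0.969 and 1.07.

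So 4 genes were highest in both of these libraries and 3 were lowest in both. The same held for 29.7% and 30.8% of the tested genes, which means that the pattern was shared by much of the transcriptome. Over tested genes the 2 ratios had a Spearman correlation of 0.59 (15536 genes, which are not replicates and share the libraries). Against transcript length the correlation was -0.29 for the wild-type ratio and -0.20 for the knockout ratio, and against GC content 0.10 and 0.13 (15137 genes with an annotated transcript). The median transcript lengths of ALKBH7, ALKBH2 and ALKBH6 were 603, 895 and 966 bases. Those of FTO, ALKBH5 and ALKBH8 were 1852, 2176.5 and 2393.5 bases, while MGMT, at 1759, was nearer the second group. Median GC contents were 64.0%, 53.2% and 62.8% for ALKBH7, ALKBH2 and ALKBH6, and 57.5% for MGMT. They were 46.5%, 53.6% and 41.1% for FTO, ALKBH5 and ALKBH8, so ALKBH2 and ALKBH5 were close. The part of length, GC content or RNA quality in these differences was not tested. With both libraries left out the log2 fold change of ALKBH3 was -7.72.

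**Figure D3:**
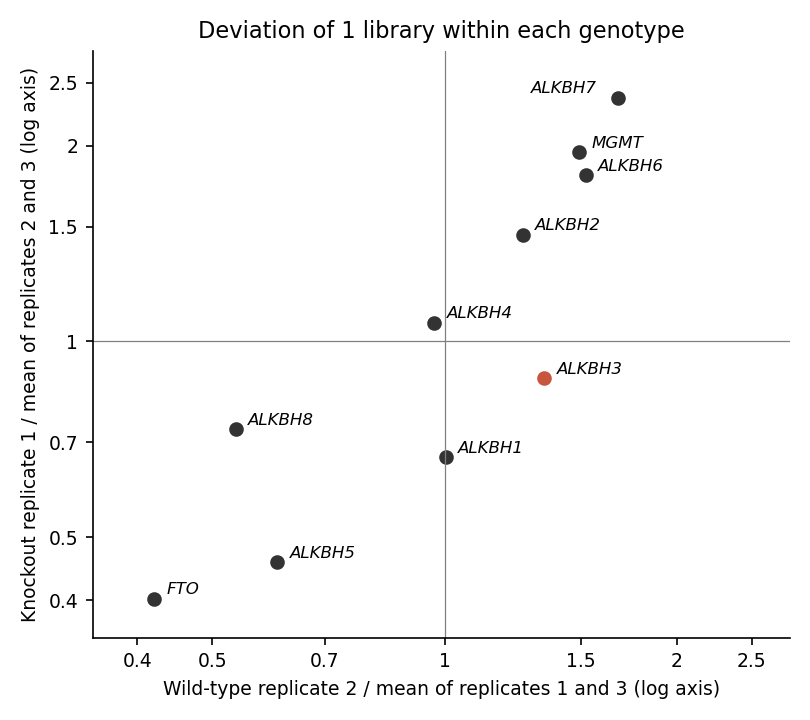
For each of the 10 genes, the level in wild-type replicate 2 divided by the mean of wild-type replicates 1 and 3 (x, log axis) against the level in knockout replicate 1 divided by the mean of knockout replicates 2 and 3 (y, log axis). ALKBH2, ALKBH6, ALKBH7 and MGMT lie above 1 on both axes and FTO, ALKBH5 and ALKBH8 below 1 on both; the ALKBH3 point (red) rests on 1 to 2 reads per library on the y axis.

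Levels were compared between genes per kb of the gene's median annotated protein-coding transcript, since longer transcripts give more reads. In the wild type ALKBH7 was highest with 5785 normalized counts per kb, followed by ALKBH5 with 2357, ALKBH6 with 1763, FTO with 1280, ALKBH2 with 1263, MGMT with 1256, ALKBH3 with 719, ALKBH4 with 523, ALKBH1 with 383 and ALKBH8 with 118. Ranges of neighbours in that order overlapped from ALKBH5 down to MGMT, and the steps above ALKBH5 and below MGMT were free of overlap. In the knockout the order began with ALKBH7 at 8926, ALKBH6 at 2698, ALKBH5 at 2271 and ALKBH2 at 1973 per kb and ended with ALKBH8 at 87.1 and ALKBH3 at 1.75. ALKBH3 thus went from rank 7 to rank 10, and ranges of neighbours overlapped from ALKBH6 down to ALKBH1. With the longest transcript in place of the median, FTO, whose longest is 11766 bases, was at rank 9 in the wild type in place of 4, and the top rank of ALKBH7 overlapped the next in both genotypes.

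Genes of related pathways, among them 39 other dioxygenases that use 2-oxoglutarate, were counted in lists of 139 genes, of which 138 were tested. With limma 13 had an adjusted p under 0.05, 7 higher and 6 lower in the knockout, or 9.42% against 12.8% of tested genes. edgeR on the recovered reads also called 13 and DESeq2 23. Leaving out wild-type replicate 2 and knockout replicate 1 together raised the count to 46 of 138, where 30.2% of tested genes were called in place of 12.8%, and the count of each list in that setting is given below. The median log2 fold change of the lists together was 0.02.

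For m6A, 0 of the 12 genes listed as writers and 0 of the 13 listed as readers had a limma adjusted p under 0.05. The counts were 0 and 0 at an unadjusted p under 0.05, 0 and 0 with edgeR and 0 and 0 with DESeq2. Without wild-type replicate 2 and knockout replicate 1 together they were 1 and 2. The median log2 fold changes of the listed writers and readers were -0.01 and 0.06. METTL3, the catalytic writer, had 3145 to 4282 normalized counts in the wild type and 4098 to 5020 in the knockout (log2 fold change 0.29, SE 0.20, limma adjusted p = 0.398). Its partner METTL14 had 673 to 984 and 872 to 1265 (0.35, SE 0.25, limma adjusted p = 0.418), and the reader YTHDF2 had 5745 to 6421 and 4645 to 7121 (-0.03, SE 0.21, limma adjusted p = 0.944). These 3 were named after their values were seen.

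The ASCC list holds the helicase complex that unwinds DNA for ALKBH3 and its ubiquitin-linked recruiter. Of its 5 genes 1 passed, and 3 without wild-type replicate 2 and knockout replicate 1 together. ASCC3, the helicase, fell from 1779, 1665 and 1772 normalized counts to 916, 1233 and 898, a log2 fold change of -0.79 (SE 0.20, limma adjusted p = 0.0423). Leaving out single libraries in turn put its adjusted p over 0.05 in 5 of 6 cases, the exception being knockout replicate 2 (0.0475), and it ran from 0.0663 without knockout replicate 1 to 0.165 without wild-type replicate 1. Dropping wild-type replicate 2 or 3 gave 0.0708 or 0.138, and dropping knockout replicate 3 gave 0.156. The other 4 members did not pass: ASCC1 had a log2 fold change of 0.36, ASCC2 0.46, TRIP4 0.01 and the ubiquitin ligase RNF113A 0.64, with limma adjusted p-values of 0.324, 0.517, 0.992 and 0.153.

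In base excision repair 3 of 22 genes passed, 1 higher and 2 lower, and 5 without wild-type replicate 2 and knockout replicate 1 together. PARP1, the sensor of DNA strand breaks, fell by 1.15 on the log2 scale (SE 0.22, limma adjusted p = 0.0153), from 7432 to 11087 normalized counts in the wild type to 3624 to 4806 in the knockout. MUTYH, which removes adenine opposite oxidised guanine, fell by 1.22 (SE 0.29, limma adjusted p = 0.0322). MBD4, a glycosylase for mismatches at CG sites, rose by 0.91 (SE 0.17, limma adjusted p = 0.0132) and by 0.63 with equal totals (limma adjusted p = 0.0653). MPG, the glycosylase for alkylated bases, had 2000 to 3137 and 2010 to 3432 (log2 fold change 0.13, SE 0.27, limma adjusted p = 0.817). In mismatch repair 1 of 9 passed (2 with both libraries left out): PCNA, the replication clamp, fell by 0.85 (SE 0.20, limma adjusted p = 0.0284), beside the lower cycling markers given above.

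Each of these repair calls was lost when any of several libraries was dropped, while the estimates kept their sign. Over the fits with 1 library left out, the log2 fold change ran from -1.33 to -1.03 for PARP1 and -1.46 to -1.01 for MUTYH. It ran from 0.86 to 0.96 for MBD4 and -0.94 to -0.71 for PCNA. Such fits hold fewer libraries, so a lost call does not show that the difference came from the library dropped. Without wild-type replicate 1 the adjusted p-values were 0.0832 for PARP1, 0.115 for MUTYH, 0.0737 for MBD4 and 0.0963 for PCNA. With wild-type replicate 3 dropped they were 0.0710, 0.124, 0.0676 and 0.0707. Dropping knockout replicate 3 gave 0.0515 for PARP1, 0.0664 for MBD4 and 0.0949 for PCNA. MUTYH and PCNA were also over 0.05 with wild-type replicate 2 dropped (0.0566 and 0.0584) or knockout replicate 2 dropped (0.0868 and 0.0927).

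Among transfer RNA modification enzymes 2 of 19 passed, both higher, and 6 without wild-type replicate 2 and knockout replicate 1 together. TRMT9B, a relative of the methyltransferase part of ALKBH8, rose from 305, 368 and 419 normalized counts to 1219, 1115 and 1008 (log2 fold change 1.62, SE 0.22, limma adjusted p = 0.00374). TRMT10C, part of mitochondrial RNase P, rose by 1.13 (SE 0.23, limma adjusted p = 0.0187). Its adjusted p was 0.0877 and 0.0810 with wild-type replicate 1 or 3 dropped and 0.0629 with knockout replicate 3 dropped. TRMT9B stayed under 0.05 in each of the 18 alternatives run.

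Of the 39 other dioxygenases in the list of those that use 2-oxoglutarate 5 passed, 3 higher and 2 lower. An unadjusted p under 0.05 was reached by 11. The count was 20 of 39 without wild-type replicate 2 and knockout replicate 1 together. EGLN3, an oxygen-sensing prolyl hydroxylase, rose from 314, 261 and 362 normalized counts to 2982, 3973 and 4129 (log2 fold change 3.56, SE 0.23, limma adjusted p = 0.000198). P4HA3, a collagen prolyl hydroxylase subunit, had 3.02, 0.762 and 0.638 normalized counts in the wild type, or 1 to 2 reads, and 41.9, 85.8 and 58.7 in the knockout. JMJD6 rose by 1.19 (SE 0.19, limma adjusted p = 0.00668), and RIOX2, a ribosomal hydroxylase, fell by 1.27 (SE 0.25, limma adjusted p = 0.0163). Leaving out wild-type replicate 1 or 3 gave RIOX2 an adjusted p of 0.0875 or 0.0695. The fifth gene was P4HTM, a transmembrane prolyl hydroxylase, with a log2 fold change of -0.74 (SE 0.20, limma adjusted p = 0.0478), named after its value was seen. That call is close to the threshold, and its values with single libraries left out are not given here.

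The supply of 2-oxoglutarate and the removal of 2-hydroxyglutarate had 1 of 14 genes past the threshold, and 4 without wild-type replicate 2 and knockout replicate 1 together. IDH3A, a subunit of the mitochondrial isocitrate dehydrogenase that makes 2-oxoglutarate, rose from 4741 to 8175 normalized counts in the wild type to 10370 to 20822 in the knockout (log2 fold change 1.33, SE 0.33, limma adjusted p = 0.0385). It stayed under 0.05 without knockout replicate 1 (0.00785) and was over it without any other library, from 0.0733 without wild-type replicate 3 to 0.142 without knockout replicate 3, with 0.115 and 0.0934 when wild-type replicate 1 or 2 was dropped and 0.106 when it was knockout replicate 2. IDH1, which makes 2-oxoglutarate in the cytosol, had 4660 to 6955 and 7202 to 17831 (log2 fold change 1.13, SE 0.37, limma adjusted p = 0.0882).

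Of the DNA cytosine methylation genes 0 of 5 tested had a limma adjusted p under 0.05, with 2 at an unadjusted p under 0.05, 0 with edgeR and 1 with DESeq2. Without wild-type replicate 2 and knockout replicate 1 together 3 of the 5 had an adjusted p under 0.05. Of the 5 log2 fold changes 5 were negative, with a median of -0.63, against 0.0052 over tested genes. Those of DNMT1 and UHRF2 (-0.23, SE 0.31, limma adjusted p = 0.688) were smaller in size than their SE. UHRF1 (-1.14, SE 0.66, limma adjusted p = 0.318) overlapped between genotypes. DNMT3L, also listed, did not pass the filter. DNMT3B, a de novo methyltransferase, had 453, 232 and 638 normalized counts in the wild type and 6.36, 123 and 95.1 in the knockout (log2 fold change -3.20, SE 1.02, limma adjusted p = 0.0835). DNMT3A had 2234 to 2612 and 1320 to 1909 (-0.63, SE 0.21, limma adjusted p = 0.0927), and DNMT1, the maintenance enzyme, had 3147 to 4022 and 3003 to 4190 (-0.02, SE 0.21, limma adjusted p = 0.971).

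**Figure D4:**
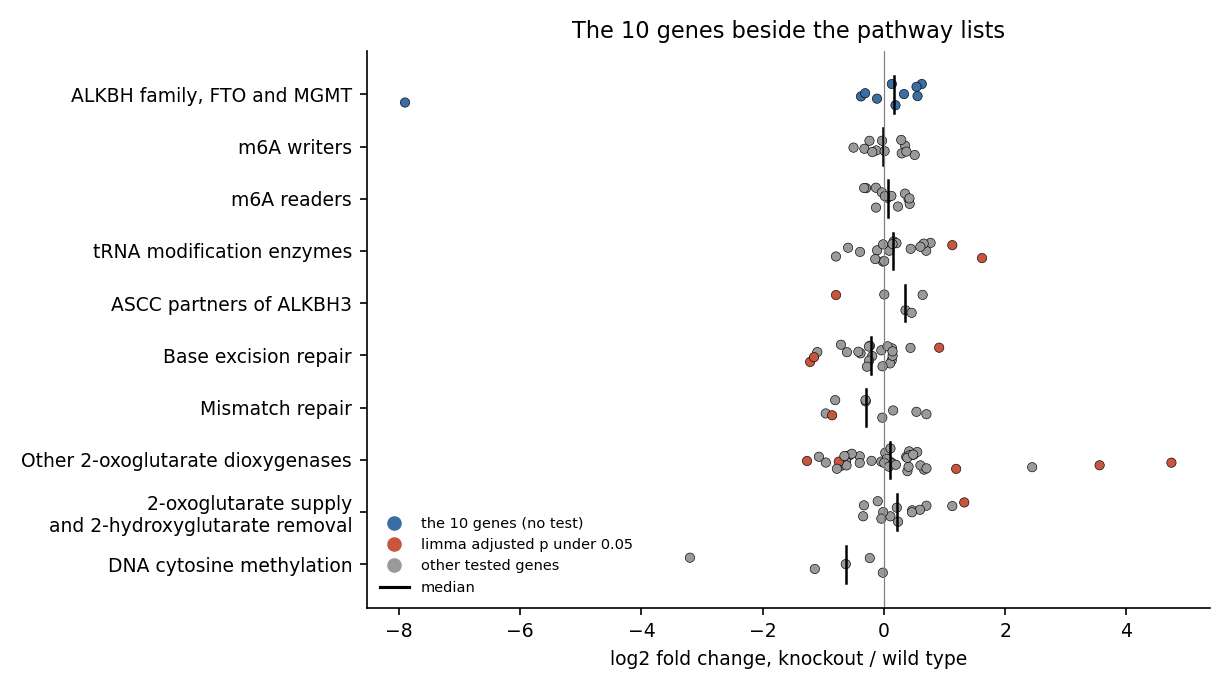
Log2 fold change of knockout over wild type for the 10 genes (blue, no test) and for the tested genes of each pathway list (red where the limma adjusted p is under 0.05, grey otherwise), with the median of each row as a black line. ALKBH3 stands at -7.90, apart from the other 9 of its row, which lie between -0.38 and 0.63.

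The genes that correlated most with ALKBH3 over the 6 libraries were SLC30A3, FCMR, TCTEX1D1, SLIT1 and ADAMTS19. Their Pearson correlations of log2 values ran from 0.9991 to 0.9998. These correlations are a description of 2 groups of 3 libraries that share depth and genotype. The genes lie on chromosomes 2, 1, 1, 10 and 5. SLC30A3, a zinc transporter gene, had 3498, 3869 and 3524 normalized counts in the wild type and 1074, 1059 and 1122 in the knockout. It kept 29.9% of its wild-type level, against 0.243% for ALKBH3, since a correlation does not compare the size of a change. TCTEX1D1 had 147, 205 and 151, and ADAMTS19, a matrix protease gene, had 104, 144 and 141, both with 0 reads in every knockout library. FCMR (34.7, 43.4 and 37.0) and SLIT1 (19.6, 28.2 and 22.3) also had 0 reads in every knockout library, where 3 reads would have been 2.67 to 3.81 normalized counts.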

How the data were processed

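Each of 35793 gene symbols has 1 deposited value in each of 6 libraries, named normalized counts by the authors; they are a signal in which every value of a library is a whole multiple (100% of values, within 0.001 of a whole number) of 1 step, so whole reads per gene were recovered. The submitters' processing notes list bcl2fastq 2.19, kallisto 0.44.0, DESeq2 1.28.1 and GRCh38 with no role or order; annotation, filters and strand are not given in the sources used here. The steps that the authors took to make the signal are known no further than that. If the reads were transcript estimates summed per gene, they are rounded. Columns were matched to samples by the descriptions in the labels, and 0 columns were left unused.

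R 4.3.3 with limma 3.58.1 was used for the fit (lmFit, eBayes with a trend) on log2(value + 1) of all 6 libraries with no covariate, keeping genes whose mean value reached 10, with Benjamini-Hochberg adjustment over all 15536 tested genes and a threshold of 0.05. The fits were tested on simulated data. Alternative count fits of the recovered reads used edgeR 4.0.16 and DESeq2 1.42.0. GENCODE 29 (GRCh38) gave positions, lengths and GC content by symbol, and promoters from RefSeq. P-values weigh the difference between genotypes against the spread among libraries within them, and do not cover differences between edited lines. Counting intervals do not cover PCR copies.

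The members, lists and tests were chosen with earlier results of these data known. Genes named are the 10 members and their pseudogenes, up to 4 called genes per pathway list by size of change, tested genes within 500 kb of the 2 members that differed most, the 5 genes most correlated with ALKBH3, IRX3, IRX5, RPGRIP1L and STK25. METTL3, METTL14, YTHDF2, MPG, IDH1, the uncalled ASCC genes, SEC14L1P1, P4HTM, NKX2-5, UHRF1, UHRF2 and the DNMT genes were named in addition, after their values were seen. Alternatives were pseudocounts of 0.1 and 10, no filter or a minimum mean of 50, 3 other scalings, a replicate block, no trend, each library left out, the 2 count tools, the longest transcript, and, added after the data were seen, leaving out wild-type replicate 2 and knockout replicate 1 together.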

Additional observations from a re-analysis of the deposited data

How the results depend on the processing

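The lower level of ALKBH3 kept its direction in each of the 18 alternatives, from -8.65 (DESeq2) to -5.66 (pseudocount 10) on the log2 scale. ALKBH1, ALKBH2, ALKBH6, ALKBH7 and ALKBH8 also kept theirs in 18 of 18, whereas ALKBH4 did so in 17, FTO in 17, MGMT in 16 and ALKBH5 in 15. The median of the 10 members was -0.12 with equal totals, 0.070 without wild-type replicate 2 and knockout replicate 1 together, and 0.10 to 0.24 when 1 library was left out. The count of called genes was 1982; it was 3210 with DESeq2, 4689 without wild-type replicate 2 and knockout replicate 1 together, and 797 (without wild-type replicate 1) to 2181 when 1 library was left out. The 13 pathway calls became 8 without a trend, 23 with DESeq2, 46 without those 2 libraries together, and 4 (without wild-type replicate 1 or 3) to 17 when 1 library was left out, with 6 without knockout replicate 3. With the replicate number as a block 798 genes and 3 pathway genes were called. Deviations from the genotype mean had correlations of -0.23, -0.40 and 0.17 between samples with the same number. Between wild-type replicate 2 and knockout replicate 1 the correlation was 0.45, and the other pairs ran from -0.35 to 0.32. With 3 libraries per genotype and 1 that stood apart in each, these values cannot show whether samples with the same number were prepared together. The cause of these changes was not tested. Depth limits ALKBH3 in the knockout, where 1 to 2 reads per library set the fold.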
